A study of Mus musculus with 4 samples.

Results

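The genes examined here are the circadian genes of mouse liver whose transcripts peak at ZT18, in the middle of the dark phase, and the data are the CTCF binding sites listed around them. Zeitgeber time (ZT) counts the hours after the lights go on. The study's table of circadian genes gives each gene a position in the NCBIM37/mm9 genome and a peak time taken from RNA sequencing. The study called a gene circadian when its RNA differed between any pair of ZT0, ZT6, ZT12 and ZT18. The peak time is the one of these with the highest mean RNA, not the peak of a fitted rhythm. All genes with peak time 18 were taken as members, apart from the core clock genes, the clock-driven transcription factors and the Cyp genes. This rule uses no CTCF value, but it was set with earlier results of these data known. It gave 201 of the 1254 genes of the table. Of the other 1053 circadian genes, 215 peak at ZT0, 340 at ZT6 and 479 at ZT12, and 19 are the clock and Cyp genes left out, 4 of them with their peak at ZT18.

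CTCF was measured by ChIP-seq: chromatin is sheared, the fragments that carry the protein are pulled down with an antibody, and their DNA is sequenced. The livers came from wild type male mice of the strain C57BL/6. From the age of 8 weeks the mice were kept for 2 weeks in 12 hours of light and 12 hours of darkness, with free access to food. Tissue was taken at lights on (ZT0) and at lights off (ZT12), from 2 biological replicates each. For each time there is 1 list of sites for both replicates, with 10113 sites at ZT0 and 6799 at ZT12. A site is a peak, a stretch with recovered reads above background, given by its start and end alone. The lists are labelled as peaks after a motif search, and whether the search narrowed them is not described, so a peak may have been kept for its motif. They also hold fewer sites than the study counts, and a gene without a site is a gene without one in these lists. No replicate, strand or score is given for a site, so there is no spread between animals to set a value against, and the depth is unknown. A list of binding sites holds no expression value, so the tissue could not be checked against its marker genes.

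CTCF is a zinc finger protein that binds a long DNA motif and, together with cohesin, holds the ends of chromatin loops and sets borders between chromosomal domains. In the liver of a mouse, the dark phase is the time of feeding, and the genes that peak then are known for work that food intake calls for. Among the members are the heat shock proteins and their partners in the cytosol, the machinery that folds and glycosylates secreted proteins in the endoplasmic reticulum (ER), enzymes of fat synthesis and of sugar, amino acid and nucleotide metabolism, and parts of the transcription machinery.

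Most members had a listed CTCF site in their window. A gene's window is its body extended by 50 kilobases (kb) on each side, and a site counted when it overlapped the window by at least 1 base. At ZT0, 151 of 201 members had at least 1 site in their window (75.1%, 95% Wilson interval 68.7 to 80.6%), beside 71.5% of all circadian genes. At ZT12, 131 members did (65.2%, 58.4 to 71.4%), beside 58.7% of all circadian genes. The members stood 4.28 percentage points above the other circadian genes in the ZT0 list (95% Newcombe interval -2.66 to 10.4) and 7.72 points above them in the ZT12 list (0.292 to 14.7). Among all 22350 protein-coding genes, 58.2% had a ZT0 site and 48.1% a ZT12 site in their window. Genes that peak at ZT0 had the highest share in the ZT0 list, 79.5%, and were level with the members at ZT12, with 65.1%. Genes with their peak at ZT6 or ZT12 lay below the members, with 69.1% and 68.5% in the ZT0 list. Genes are not replicates and neighbouring genes share windows and sites, so these intervals cover counting error only and no test was made. With an extension of 10 kb in place of 50 kb, the members' share fell below that of the other circadian genes in the ZT0 list, by a difference of -2.41 points, and the ZT12 difference shrank to 0.0269 points (-6.67 to 7.29). With only sites that match the motif, the ZT12 interval included 0 (-0.122 to 14.3). These alternatives were chosen after seeing the data.

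**Figure D1:**
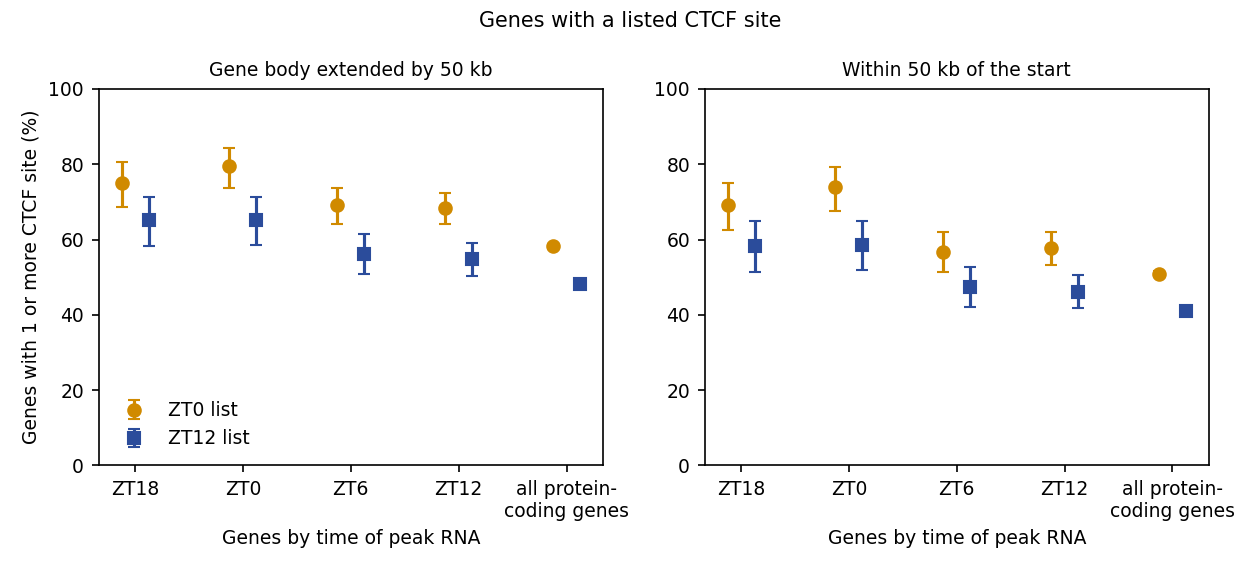
Percentage of genes (y axis) with at least 1 CTCF site in the gene body extended by 50 kb (left) or within 50 kb of the start (right), for the genes of each peak time and all protein-coding genes (x axis), with points for the ZT0 and ZT12 lists and 95% Wilson intervals as bars. In the left panel the members, with 75.1% and 65.2%, and the genes with peak ZT0, with 79.5% and 65.1%, stand above the genes with peak ZT6 or ZT12.

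The members had a median length of 16.6 kb, against 27.6 kb for the other circadian genes and 16.7 kb for the genes with peak ZT0, and windows follow gene length. Measured from the transcription start, which leaves out the length of the window, the members' medians were shorter than those of the other circadian genes. Genes were not matched by length. The median distance from the start to the nearest edge of a ZT0 site was 27.0 kb (quartiles 8.56 and 66.1 kb, 95% interval of the median 21.5 to 36.1 kb), against 32.2 kb for the other circadian genes and 47.7 kb for protein-coding genes. To a ZT12 site it was 38.8 kb (quartiles 13.8 and 116 kb, interval 29.5 to 47.4 kb), against 51.6 kb for the other circadian genes and 32.5 kb for the genes with peak ZT0. To ZT0 sites the genes with peak ZT0 also lay closer than the members, with a median of 21.5 kb, while those with peak ZT6 and ZT12 had medians of 39.2 and 34.8 kb.

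Within 50 kb of the start, 139 members had a ZT0 site (69.2%, 62.5 to 75.1%), beside 62.0% of all circadian genes, and 117 had a ZT12 site (58.2%, 51.3 to 64.8%), beside 50.6%. By this measure the members exceeded the other circadian genes by 8.47 points at ZT0 (1.17 to 15.1) and 9.02 points at ZT12 (1.48 to 16.3). Against the genes with peak ZT0 their difference was -4.80 points in the ZT0 list (-13.4 to 3.85), an interval that includes 0. Within 10 kb of the start, 55 members had a ZT0 site (27.4%), beside 23.1% of all circadian genes, and 40 had a ZT12 site (19.9%), beside 16.2%. Within 1 kb, 22 members had a ZT0 site (10.9%), beside 10.0%, and 15 had a ZT12 site (7.46%), beside 7.10%. The differences from the other circadian genes at 10 kb were 5.05 points at ZT0 (-1.22 to 12.0) and 4.42 points at ZT12 (-1.03 to 10.8). At 1 kb they were 1.07 points (-3.03 to 6.40) and 0.435 points (-2.92 to 5.13). All of these intervals include 0.

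**Figure D2:**
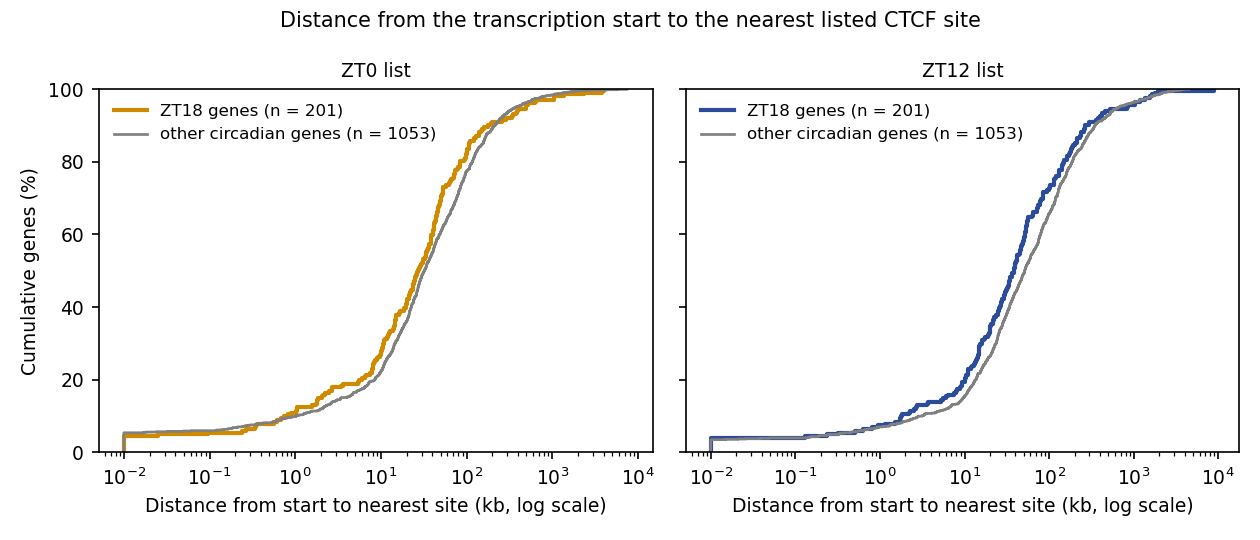
Cumulative percentage of genes (y axis) by distance from the transcription start to the nearest CTCF site in kb (x axis, log scale, with sites over or next to the start drawn at its left end), 1 panel for each list, with the members coloured and the other circadian genes grey. The members' median is 27.0 kb in the ZT0 list and 38.8 kb in the ZT12 list, each to the left of the grey curve's 32.2 and 51.6 kb.

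Counted together, the members' windows held 345 ZT0 sites and 259 ZT12 sites, or 12.9 and 9.70 sites per megabase (Mb). The other circadian genes had 10.4 and 6.94 per Mb, the genes with peak ZT0 14.6 and 9.54 per Mb, and protein-coding genes 8.57 and 5.91 per Mb. Of the members, 57 had 1 ZT0 site, 45 had 2 and 22 had 3, against 297, 204 and 113 of the 1053 other circadian genes. A ZT0 site fell in the body of 37 members (18.4%), against 25.4% of the other circadian genes, 28.8% of the genes with peak ZT0 and 18.2% of protein-coding genes. The ZT0 site nearest to the start lay upstream of it for 100 members, downstream for 92 and over the start itself for 9. This split was not counted for other genes, so it describes the members alone.

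The ZT0 and ZT12 lists named mostly the same members. There were 127 members with a site in both lists (63.2%), beside 56.0% of all circadian genes, and 46 with a site in neither (22.9%), beside 25.8%. A site in the ZT0 list only was found for 24 members (11.9%), beside 15.6%, and in the ZT12 list only for 4 members (1.99%), beside 2.71%. More ZT0 than ZT12 sites were listed for 78 members (38.8%), beside 41.5%, and more ZT12 than ZT0 sites for 14 (6.97%), beside 6.94%. The nearest site was the same stretch in both lists for 111 members (55.2%, 48.3 to 61.9%), against 51.3% of the other circadian genes. For 70 of the 201 members the nearest ZT0 site was closer by more than 1 kb, beside 476 of all 1254 circadian genes. For 18 members the nearest ZT12 site was closer by that much, beside 121 of all circadian genes. The ZT0 list is the longer of the lists. When only the widest ZT0 sites were kept, as many as the ZT12 list holds, the members with a ZT0 site fell to 65.2%, the same share as in the ZT12 list.

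The function lists below are small, and their counts are to be read beside the 71.5% and 58.7% of all circadian genes with a ZT0 and a ZT12 site. The other genes of a list need not be circadian. In the circadian table are 8 of 20 such genes of the chaperone list and 5 of 22 of the ER list. It also holds 6 of 13 for lipid synthesis, 4 of 19 for carbohydrates and 0 of 18 for amino acids. The cytosolic chaperones had the most ZT0 sites per Mb of the 9 function lists. Of 15 members, 12 had a ZT0 site and 11 a ZT12 site, with a median distance of 15 and 24.6 kb and 17.5 and 13.4 sites per Mb. The 20 other genes of this list, from the chaperonin subunits to Hsf1, had 11.1 and 7.83 sites per Mb, and 13 and 10 of them had a site. Hsp90aa1, the stress-inducible form of the cytosolic chaperone HSP90, had a single site in each list, right at its promoter. The ZT0 site at chr12:111941205-111941472 began 0.267 kb upstream of the start and overlapped the ZT12 site at chr12:111941176-111941507. Hsp90ab1, the constitutive HSP90, had 4 ZT0 and 3 ZT12 sites, and none at its start: they lay 8.20, 9.22, 11.6 and 23.9 kb away at ZT0. The site 8.20 kb upstream, at chr17:45718415-45718831, was listed at ZT0 only. The farthest of them lies in Slc29a1, another member on the same chromosome, which encodes a nucleoside transporter.

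Hspa8, the constitutive HSP70 of the cytosol, stood between a pair of sites found in both lists, 44.3 kb upstream and 33.7 kb downstream. Their best motif matches scored 21.4 and 23.2, on a log2-odds scale explained with the start sites further on. Hsph1, which exchanges the nucleotide of HSP70, had 1 site in each list, 41.6 kb upstream at ZT0, at the start of B3galtl. Stip1, which hands clients from HSP70 to HSP90, had 3 ZT0 and 2 ZT12 sites, the nearest 24.5 kb upstream. Fkbp4, an HSP90 partner of the steroid receptors, had 2 sites in each list, the nearer 7.53 kb upstream at ZT0. Dnaja1, a J-domain partner of HSP70, had 2 in each list as well, of which 1 was shared, 52.2 kb downstream. Unc45a, a chaperone of myosin, was the member of this list with the most sites, with 5 at ZT0 and 4 at ZT12, and 2 of each lay within 1 kb of its start. Cacybp, a binding partner of calcyclin, had 2 ZT0 sites, 0.360 kb upstream and 17.7 kb downstream, and its nearest ZT12 site was 131 kb away. The small heat shock protein Hspb1 and the J-domain gene Dnajb2 had 4 and 3 ZT0 sites, and Cct5, a chaperonin subunit, had 1. Ahsa1, which stimulates HSP90, Cct3, another chaperonin subunit, and Hspa4l, of the HSP110 family, had no site in their windows.

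The next list is that of the ER. Of its 23 members, 15 had a ZT0 site and 14 a ZT12 site, with a median distance of 32.9 and 49.0 kb and 12.8 and 9.73 sites per Mb. Its 22 other genes had 12.0 and 6.17 sites per Mb, with 17 and 11 of them carrying a site. P4hb, the protein disulfide isomerase that is also a subunit of prolyl 4-hydroxylase, had 2 sites in both lists, 6.46 kb upstream and 57.3 kb downstream at ZT0. Hyou1, a large ER chaperone of the HSP70 family, had 1 ZT0 site 44.3 kb upstream, at the start of H2afx, and no ZT12 site nearer than 74.6 kb. Uggt1, which returns misfolded glycoproteins to calnexin, had 3 ZT0 and 2 ZT12 sites, and the nearest ZT0 site lay 8.56 kb upstream. B4galt7, an enzyme of proteoglycan linkers, had 2 in each list, 1.77 kb from its start at ZT0, in its own intron. Glt25d1 and P4ha2, both enzymes of collagen modification, had 4 and 3 ZT0 sites. Creld1, Creld2, Lman2, Mcfd2, Mlec and Sel1l had 2 each, and Edem1 and Plod1 had 1. Erp44, a thioredoxin family protein that retains clients in the early secretory pathway, had a ZT12 site only, in its own intron 54.1 kb from its start.

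No site was listed in the windows of 7 ER members. Canx, the lectin chaperone calnexin, missed by little, with a shared site 52.6 kb upstream at ZT0, at the start of Hnrnph1. Ganab, which trims glucose from new glycans, had its nearest ZT0 site at 53.2 kb and Pomt2, an O-mannosyltransferase, at 94.6 kb. Dnajb11, a J-domain cochaperone of the ER, lay 293 kb from the nearest site of either list. Stt3b and Magt1 encode subunits of the oligosaccharyltransferase, which attaches glycans to new proteins. Stt3b had no site within 147 kb, and Magt1 on chromosome X none within 1800 kb. Serp1, a small ER membrane protein, had its nearest site at 109 kb.

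Pdia4, a protein disulfide isomerase, had the most sites of all members, 9 at ZT0 and 8 at ZT12. Of these, 6 in each list stood in a row downstream of the gene, at chr6:47698432-47722733, spaced 4.30 to 5.60 kb apart. These 6 ZT0 sites were wide, between 738 and 860 bases, where the median of the ZT0 list is 313. Each held the same motif match with the same flanks on the minus strand of NCBIM37, shown here because the run of sites rests on it, with the 19 motif bases in capitals.
Pdia4 repeat: cggcgCGACCGGCAGGTGTCGCCGtggca
Compared position by position without gaps, the 601 bases around these matches were 74.0 to 96.8% identical between copies, so the row is a run of repeated DNA. The 29 bases occur 12 times in the genome, all on chromosome 6, and all 12 copies fall within a site of both lists. Reads from near-identical copies can be hard to place, and the part of this in the listed sites was not tested. The ZT0-only site 34.8 kb downstream holds a near copy, in which 1 of the 29 bases differs. By the same comparison the 601 bases around it were 35.4 to 37.8% identical to the copies. An inserted or missing base lowers this value, so it does not show whether the surroundings are related to the repeat. Pdia4 also had shared sites 16.8 and 21.9 kb upstream, at the starts of Zfp786 and Zfp398. Without Pdia4, the members' windows held 12.6 ZT0 and 9.44 ZT12 sites per Mb. The 22 ER members without it had 10.1 and 7.34 per Mb, below the other genes of the ER list at ZT0 and above them at ZT12.

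**Figure D3:**
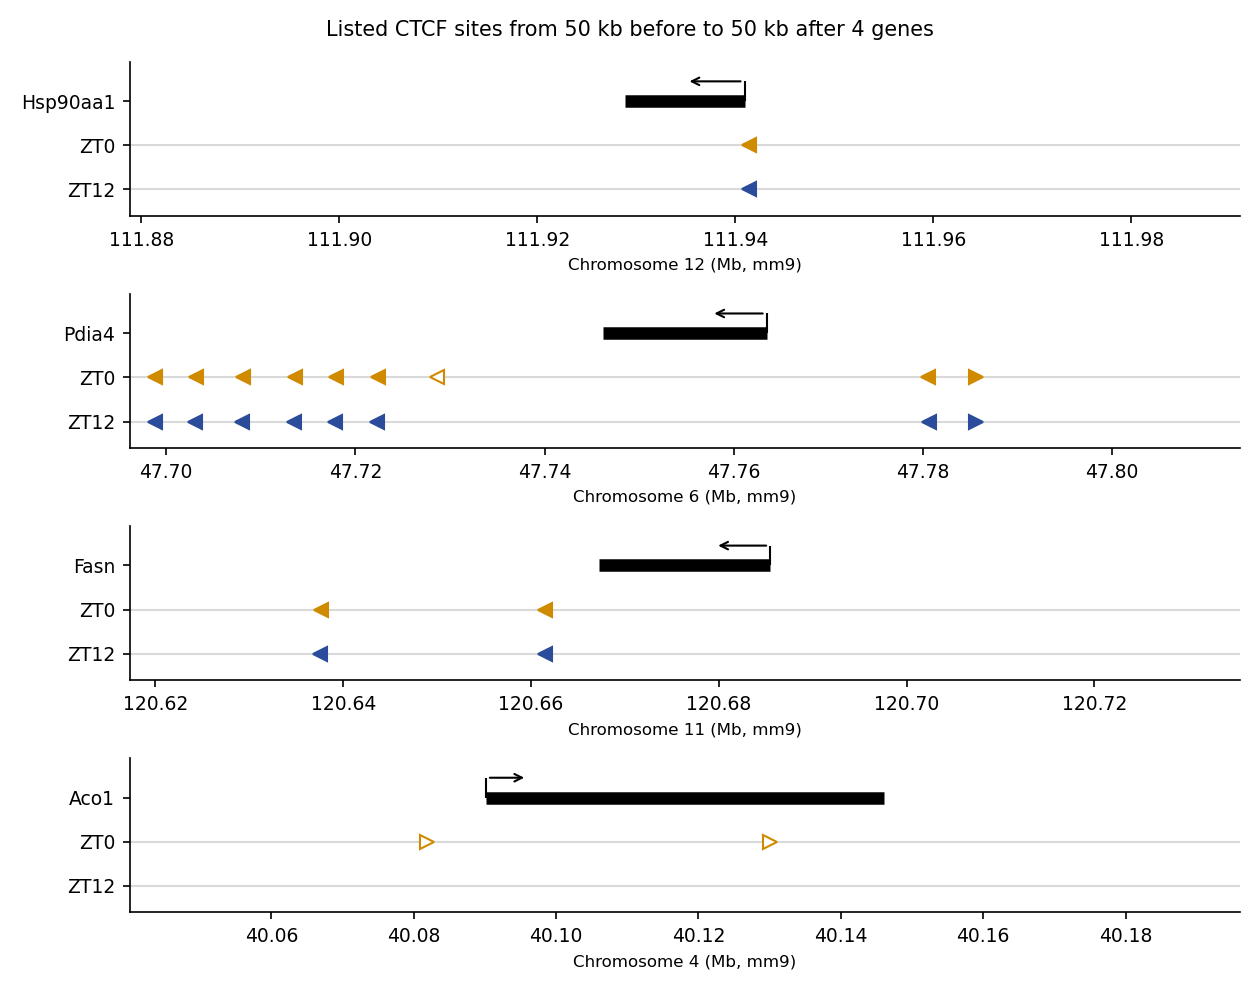
CTCF sites around Hsp90aa1, Pdia4, Fasn and Aco1, with genome position in NCBIM37/mm9 on the x axis and 1 lane for each list. The black bar is the gene with an arrow at its start, and triangles are sites, pointing along the strand of their motif, filled when shared and open when found in that list only; the 6 evenly spaced sites downstream of Pdia4 lie in the repeat.

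Of the 8 members of the list for lipid synthesis, which also takes in other lipid enzymes such as Sgpl1 and Acot1, 7 had a ZT0 site and 6 a ZT12 site, with 16.9 and 15 sites per Mb, and of the 13 other genes of the list 12 and 10 had one, with 13.3 and 7.77 per Mb. Fasn, the fatty acid synthase, had 2 shared sites, both downstream, at chr11:120661315-120661691 and chr11:120637273-120637888, 23.8 and 47.6 kb from its start. Acly, which makes cytosolic acetyl-CoA for fat synthesis, had 2 shared sites 27.7 and 42.4 kb upstream, both in introns of Ttc25. Agpat2, an acyltransferase of glycerolipid synthesis, had 3 ZT0 and 4 ZT12 sites, and the additional ZT12 site, at the start of Egfl7, was its nearest, 17.4 kb downstream. Gpam, which adds the first acyl group in that pathway, had a ZT0 site only, 66.1 kb downstream. Lpcat3, which remodels phospholipids, and Sgpl1, which breaks down sphingosine phosphate, had shared sites 0.239 and 0.025 kb upstream of their starts at ZT0. Acot1, an acyl-CoA thioesterase, had 2 ZT0 sites and 1 ZT12 site. Pi4k2b, a phosphatidylinositol kinase, had none.

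Carbohydrate metabolism was the list with the fewest sites per Mb. Of 9 members, 5 had a ZT0 site and 4 a ZT12 site, at 5.42 sites per Mb in each list, while of the 19 other genes of the list 16 and 13 had one, at 15.8 and 11.4 per Mb. The 9 members are few, and 2 of them lie on chromosome X. Ppp1r3b, which brings protein phosphatase 1 to glycogen in the liver, had a ZT0 site 0.610 kb inside its start, at chr8:36439405-36439696, and no ZT12 site nearer than 216 kb. Dak, a kinase of trioses, and Pgp, a phosphoglycolate phosphatase, had their nearest ZT0 sites at 2.22 and 8.01 kb, and both of these were shared. Galm, which interconverts the anomers of galactose, had a shared site 52.6 kb from its start. Gpi1, the glucose phosphate isomerase of glycolysis, had none and lay 177 kb from its nearest site. On chromosome X, Pgk1, phosphoglycerate kinase, and Pfkfb1, which sets the level of fructose 2,6-bisphosphate, were 1630 and 2330 kb from any site. Together with Magt1, also on chromosome X, these were the members farthest from a listed site. Other genes of that chromosome were not counted for comparison.

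The list of amino acid, one-carbon and nucleotide metabolism had sites near to its starts. Its 15 members had a median distance of 10.1 kb to a ZT0 site and 13.0 kb to a ZT12 site. The 18 other genes of the list, with medians of 41.8 and 81.0 kb, are all outside the circadian table. A site was found for 11 members at ZT0 and 10 at ZT12, and for 11 and 7 of the other genes. Odc1, the first enzyme of polyamine synthesis, had 1 shared site at chr12:17560822-17561256, 9.14 kb downstream, with a motif score of 25. Ahcy, which clears S-adenosylhomocysteine after methylation, had a ZT0 site only, at chr2:154908174-154908499, 7.94 kb upstream, and its nearest ZT12 site was 131 kb away. Pdxp, a phosphatase of vitamin B6, had the most, with 5 sites in each list and the nearest ZT0 site 1.81 kb from its start. Tk1, thymidine kinase, had 4 ZT0 and 3 ZT12 sites, with a shared one 1.05 kb from the start. Gda, guanine deaminase, and Enoph1, of methionine salvage, had shared sites within 1 kb of their starts. Asl, the argininosuccinate lyase of the urea cycle, had 2 sites in each list, which also lie in the window of the neighbouring member Gusb, the lysosomal beta-glucuronidase. Acy1, Papss1, Pycrl and Ggt6 had between 1 and 3 ZT0 sites. Shmt1, a serine hydroxymethyltransferase of folate metabolism, had its nearest site at 84.2 kb, and Cad, the enzyme that begins pyrimidine synthesis, at 50.2 kb, just outside its window. Ddo, which oxidises D-aspartate, and Bpnt1, a bisphosphate nucleotidase, had none either.

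Transcription and RNA processing had 13 members, of which 11 had a ZT0 site and 10 a ZT12 site, with 10.4 and 9.33 sites per Mb. Polr2h, a subunit shared by the RNA polymerases, and Taf1c, of the initiation factor of RNA polymerase I, had a shared site over the start itself. Tsen54, of the endonuclease that splices transfer RNA, had a shared site 0.342 kb upstream. Hexim1, which inhibits the elongation factor P-TEFb, had a ZT0-only site 0.559 kb inside its start. Polr2i, another polymerase subunit, had a ZT0 site at 1.01 kb, just beyond the 1 kb limit. Snd1, Rbm8a, Snrpa and Nop16 had a shared nearest site between 14.2 and 36.1 kb away. Polr3g had a site at ZT0 only, as did Eef1g, a translation elongation factor that the list also takes in. Ints3, a subunit of the Integrator complex, had 1 at ZT12 only, in its own intron. Rrp12, a factor of ribosome assembly, had none.

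Of the 14 transcription factors and chromatin proteins, 12 had a ZT0 site and 9 a ZT12 site, with 13.4 and 7.94 sites per Mb. Samd1 had 4 sites in each list, and Lmnb2, a nuclear lamin, Mypop, Smyd2 and Zfp428 had 3 ZT0 sites each. Mllt3, of the super elongation complex, had a ZT0-only site 2.12 kb upstream of its start and no ZT12 site nearer than 269 kb. Smarca2, an ATPase of the SWI/SNF remodelling complex, had 2 ZT0 sites and no ZT12 site within 845 kb of its start. Hes6, Nucks1 and the histone gene Hist2h3c2 had 2 ZT0 sites each. The histone gene Hist1h4a had 1 at ZT0 only, while Hist1h1c, a linker histone on the same chromosome, and Pknox1, a homeodomain factor, had none.

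Signalling and cell death had 15 members, of which 12 had a ZT0 site and 10 a ZT12 site, with 12.2 and 8.42 sites per Mb. Fgf1, a fibroblast growth factor, had the largest difference between the lists of any member, with 6 ZT0 and 2 ZT12 sites. All of them lay in introns of Arhgap26, which overlaps its window, and 3 of the ZT0 sites and the 2 ZT12 sites also lay in the body of Fgf1 itself. The ZT0-only site nearest to the Fgf1 start was 1.04 kb upstream of it, while both ZT12 sites lay downstream, at 38.8 and 83.5 kb. Bcl2l1, which encodes the antiapoptotic protein Bcl-xL, had a ZT0-only site over its start and a shared site 64.7 kb downstream. Ywhag, a 14-3-3 protein, had a ZT0-only site 0.350 kb upstream of its start. Ccnd3, a D-type cyclin, had 5 ZT0 and 4 ZT12 sites, with a shared one in its intron 6.09 kb from the start. Shh, the ligand sonic hedgehog, had a shared site 2.72 kb upstream at ZT0 and a further ZT12 site. Celsr1, Rassf6, Ywhah and Wnt5b had between 1 and 4 ZT0 sites. Gramd3 had more at ZT12 than at ZT0, with 2 against 1. Casp9, the initiator caspase of the mitochondrial pathway, and Gas6, a ligand of TAM receptors, had a ZT0 site only. Fas, the death receptor, Rap2a, a small GTPase, and Rcan1, an inhibitor of calcineurin, had none.

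Of the 10 members of iron and detoxification, 9 had a ZT0 site and 6 a ZT12 site, with 16.4 and 9.02 sites per Mb. Aco1, the cytosolic aconitase that doubles as an iron sensor, had 2 sites at ZT0 and none at ZT12. Its ZT0 sites lay 8.04 kb upstream, at chr4:40081761-40082078, and in its own intron at chr4:40129937-40130203, with motif scores of 18.1 and 18.9, and the nearest ZT12 site was 143 kb away. Hfe2, which encodes hemojuvelin, a regulator of hepcidin, had 2 sites in each list, of which the 1 at 27.4 kb upstream was shared. Slc29a1 had 6 ZT0 and 4 ZT12 sites, with a shared one 2.04 kb from its start. Gsta3, a glutathione transferase, had 4 ZT0 sites, and Glrx, glutaredoxin, had 2. Sod2, the mitochondrial superoxide dismutase, and Adh1, alcohol dehydrogenase, had 1 shared site each. Fmo1, a flavin monooxygenase, and Slc17a3, a renal and hepatic phosphate and urate transporter, had a site at ZT0 only. Ugt2a3, a glucuronosyltransferase, lay 652 kb from the nearest site.

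The other 79 members belong to none of these lists. Of them, 57 had a ZT0 site and 51 a ZT12 site, with median distances of 39.0 and 43.9 kb, and 20 had neither. Alpl, tissue-nonspecific alkaline phosphatase, had 6 ZT0 and 4 ZT12 sites, with a shared one over its start and a ZT12-only site in its intron 51.8 kb downstream. Mtfp1, a protein of mitochondrial fission, had 6 at ZT0 and 3 at ZT12. All 3 of its ZT12 sites were shared, and among the ZT0-only sites was the 1 at its start. Palm, the membrane protein paralemmin, also had 6 at ZT0, of which 5 were shared, and 5 at ZT12. Fbxl15, Sept9 and Ppp1r15b, the last a regulator of the phosphatase that restarts translation after stress, had 5 ZT0 sites each and were chosen after their values were seen. Cdk2ap2, D4Ertd22e, E130208F15Rik, Phldb3, Slc17a9 and Vac14 had 4, and Parp16, Rnf187, Tmem37, Tspan4 and Ubqln4 had 3, as did Abhd8 and Ccdc96. A further 12 of these members had 2, among them Abtb2, Gm9746, Mob3a, Sec14l1, Snx8 and Tubg1, which encodes gamma-tubulin, and 25 had 1, as Arl10, Heatr5a, Lrrc3, Tmem14c, Tnnc1 and Tysnd1 did. More ZT12 than ZT0 sites were listed for Palld, an actin-binding protein, with 3 against 1, and for Apobec1, the editing enzyme of apolipoprotein B transcripts, with 2 against 1. Abhd8 and Mrpl34, the latter a mitochondrial ribosomal protein, have starts 1.27 kb apart and share the site at chr8:73988441-73988923. It lies over the start of Mrpl34 and 0.885 kb upstream of Abhd8. Abhd8 had 3 ZT0 sites and 1 ZT12 site in all.

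Gsdma, a gasdermin, had 6 ZT0 and 5 ZT12 sites, and its lists differed at copies of a repeated motif and at a ZT0-only site 3.46 kb upstream that does not hold it. The motif match with its flanks occurs 3 times in the genome, on the minus strand of chromosome 11, in introns of Gsdma3, Gsdma2 and Gsdma. It is printed because sites of 1 list only lie at its copies, with the motif in capitals.
Gsdma repeat: gctgtTATCCAGCAGGGGGCGCCAtaggc
The copy in Gsdma3, at chr11:98496918-98496946, fell in a ZT0 site only. The copy in Gsdma2, at chr11:98516591-98516619, fell in a ZT12 site only, and the copy in Gsdma, at chr11:98534699-98534727, in sites of both lists. Whether reads could be told apart between the copies was not tested.

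Among the 22 members with a site within 1 kb of the start, 15 had one in both lists and 7 at ZT0 only. The latter were Bcl2l1, Cacybp, Ccdc96, Hexim1, Mtfp1, Ppp1r3b and Ywhag, and no member had a ZT12 site alone there. Of the start sites of the ZT0 list, 68.2% were thus found at ZT12 too, against 68.3% for the other circadian genes. The motif at each site was scored with a weight matrix of 19 bases learned from the lists on other chromosomes, in log2 odds against the base composition, so that a higher score means a closer match. Its consensus, the most frequent base at each position, was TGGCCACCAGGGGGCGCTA. The ZT0-only start sites of Ywhag, Ppp1r3b, Bcl2l1, Hexim1, Cacybp, Ccdc96 and Mtfp1 scored 10.9, 12.2, 12.5, 14.6, 15.7, 16.1 and 21.4, and the shared ones of Taf1c, Eid2b, Lpcat3 and Polr2h 12.2, 13.1, 13.3 and 13.6. The closest matches among the start sites follow, read 5′ to 3′ from NCBIM37 on the strand given, with the 19 motif bases in capitals and 5 flanking bases on each side, to show how near each comes to the consensus.
Hsp90aa1, motif at chr12:111941314-111941332, minus strand: gcagcTGACCAGCAGGTGGCGCTAaacac
Tsen54, motif at chr11:115675412-115675430, minus strand: gacgcTCACCACTAGGTGGCACCGttgct
Mtfp1, motif at chr11:3994552-3994570, plus strand: ggcccTTTCCACAAGGGGGCGCTAcacag
Alpl, motif at chr4:137352359-137352377, minus strand: ccgcgCTCCCGGCAGGGGGCGCCCtggca
Palm, motif at chr10:79256272-79256290, plus strand: gtctgCGGCCAGCAGGAGGCGCGCgcggg
Gda, motif at chr19:21547113-21547131, minus strand: gggcgCGGCCTGCAGGGGGCAGGCgatcg
Uchl5, motif at chr1:145624275-145624293, plus strand: tctccGGCCCGGCAGAGGGCGCTAcggat
Sgpl1, motif at chr10:60610697-60610715, minus strand: ctaccCGGCCAGCAGGCGGCGCGCacgcc
Their scores were 24.0 for Hsp90aa1, 22.1 for Tsen54, 21.4 for Mtfp1, 19.3 for Alpl, 18.9 for Palm, 18.8 for Gda, 18.3 for Uchl5 and 18.2 for Sgpl1. Apart from the Mtfp1 site, these start sites were shared between the lists. Enoph1, Unc45a and Ccdc96 followed with 17.8, 16.6 and 16.1, and the remaining start sites scored lower. Uchl5 encodes a deubiquitinase of the proteasome, and Eid2b and Ccdc96 are named here for their start sites alone.

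The 24 members with a ZT0 site only held mostly 1 site each. Ahcy, Mllt3, Ppp1r3b and Aco1 had it within 10 kb of the start, as did Cacybp. The farthest from a ZT12 site were Gm8355, Smarca2 and Polr3g, at 1180, 845 and 829 kb, chosen after their values were seen. Serinc3, Tmem150a, Aco1, Cacybp and Smarca2 had 2 ZT0 sites, and the remaining 19 had 1. The 4 members with a ZT12 site only were Erp44, Ints3, Tbl2 and Hapln4, also chosen after their values were seen, with the site 54.1, 20.6, 30.9 and 39.3 kb from the start. That of Tbl2 lay in an intron of Mlxipl, which encodes the carbohydrate-responsive factor ChREBP, its neighbour.

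The 46 members without a site included, beside those named under their lists, 20 that belong to no list. The predicted genes Gm14288, Gm14322, Gm14327 and Gm14436, with starts up to 1832 kb apart on chromosome 2, were between 201 and 1370 kb from the nearest ZT0 site. Whether reads could be placed in this stretch was not tested. Gm5844 and Gm11128 are predicted genes as well. The others were Btnl9, Ccdc151, D730039F16Rik, Dpy19l1, Gga2, Gpr155, Gpr180, Ift140, Invs, Lonrf3, Mrps6, Rad51c, Slc17a8 and Vapb. Ccdc151 lay just outside, with a ZT0 site at 52.2 kb, while Gpr180 and Dpy19l1 had none within 455 and 524 kb. All 4 members on chromosome X, Magt1, Pgk1, Pfkfb1 and Lonrf3, were without a site. The share of other genes on this chromosome with a site was not counted. The lack of sites is therefore not shown to be particular to these members.

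Counted once each, the members' windows held 330 ZT0 sites, of which 214 overlapped a ZT12 site (64.8%, 59.6 to 69.8%), against 58.4% near the other circadian genes. Of their 250 ZT12 sites, 213 overlapped a ZT0 site (85.2%, 80.3 to 89.1%), against 87.4%. The 12-base core of the motif, in which CCA, AG and GGC are fixed and the 4 positions between them are free, was found on either strand in 44.5% of the members' ZT0 sites, against 41.2% near the other circadian genes and 43.9% of all listed ZT0 sites. Of the members' ZT0 sites, 30.3% lay at the start of some gene, 7.27% in exons, 25.2% in introns and 37.3% between genes. Near the other circadian genes, 27.5% lay at starts and 30.9% in introns. In the members' windows 15 ZT0 sites were counted for more than 1 member, among them those shared by Hsp90ab1 and Slc29a1 and by Hspb1 and Ywhag.

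Promoter sequences served to look for the motifs of the factors known for these groups. RefSeq promoters of the assembly GRCm38.p6 ran from 250 bases before to 50 bases after the start. They were matched by gene identifier, or else by symbol or synonym, for 160 of the 201 members. Each motif was searched on both strands, and a match is a description of the letters, not of binding. The heat shock element, 3 alternating blocks TTC, GAA and TTC set 2 bases apart, which the heat shock factors bind, was found in the promoters of 4 members (2.50%), beside 0.662% of all genes with a promoter and 0.864% of the other circadian genes. These were Hsph1, Ahcy, Ccnd3 and Slc29a1, so 1 of the 4 is a chaperone. Hsp90aa1, Hsp90ab1 and Hspa8 had no matched promoter entry and were not searched, which leaves 12 of the 15 chaperones. The ER stress element, CCAAT and CCACG set 9 bases apart, which the factors of the unfolded protein response bind together with NF-Y, was found in 2 (1.25%), Canx and Creld2, beside 0.137% of all genes and 0.247% of the other circadian genes. Both members belong to the ER list. The E-box CACGTG, bound by the clock factors, was found in 20 (12.5%), beside 8.09% of all genes and 15.1% of the other circadian genes. The CTCF core was found in 6 (3.75%), beside 2.82% of all genes and 3.21% of the other circadian genes. Of these 6 members, Bcl2l1, Mrpl34, Palm and Sgpl1 had a listed site at their start, while Tmem150a had none within 1 kb of it. For Slc29a1, the site 2.04 kb inside the start used for the distances lies at another of its starts.

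The rare elements are printed from the promoters in which they were found, 5′ to 3′ on the strand of the gene, with the motif in capitals, since they name the members that carry them. Only elements before the start are printed, and that of Hsph1 lies after it. The positions were found in NCBIM37 by exact match.
Canx, ER stress element, chr11:50139287-50139335, minus strand: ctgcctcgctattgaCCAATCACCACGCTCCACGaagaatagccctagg
Creld2, ER stress element, chr15:88649935-88649983, plus strand: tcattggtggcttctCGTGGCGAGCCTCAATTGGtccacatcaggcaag
Ahcy, heat shock element, chr2:154900234-154900261, minus strand: tcagcccccagcaggTTCATGAATATTC
Ccnd3, heat shock element, chr17:47730216-47730258, plus strand: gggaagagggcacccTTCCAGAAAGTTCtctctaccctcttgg
Slc29a1, heat shock element, chr17:45729962-45730004, minus strand: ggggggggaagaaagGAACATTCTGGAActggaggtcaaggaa
In Creld2 and Slc29a1 the motif reads on the opposite strand. The Canx element lies 145 to 127 bases before the start and that of Creld2 126 to 108 bases before it. The Ahcy element ends at the base before the start. Those of Ccnd3 and Slc29a1 belong to RefSeq starts other than the ones used for the distances.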

How the data were processed

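CTCF ChIP-seq was carried out on mouse liver, with 2 biological replicates per time. For the authors' lists, reads were aligned by Bowtie2 to the NCBIM37/mm9 genome, filtered at mapping quality 30 (SAMtools), freed of duplicates (Picard) and passed to MACS2 for peak calling. The authors deposited 1 list of site positions per time for both replicates. The unit of the deposited values is other than a measured level: they are start and end positions in bases. How the replicates were combined, and whether the motif search named in the lists narrowed them, are not stated. No deposited column per sample was left unused (0).

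Genes came from the study's table (1256 entries, 2 of them repeated), with coordinates equal to the GENCODE annotation of the build for 197 of 201 members. The 9 function lists were written from textbook knowledge and the members' names, and members and lists were chosen with earlier results of these data known. Named were the genes of a list of 26, the 5 members with the most ZT0 sites, the 5 with the largest difference between lists, every member with a site within 1 kb of its start, and the 3 farthest from any site, with ties by gene name. Other members were named after their values were seen, to account for more of the list. Sites were shared when they overlapped by 1 base or more. The weight matrix was learned over 3 rounds on odd or even chromosomes and scored on the others, and a match was called at 0.0001 per position. It matched 99.0% of ZT0 and 98.9% of ZT12 sites, against 13.7 and 13.3% of stretches 5 kb away, which is no check of the matrix, since the lists are labelled as peaks after a motif search. Intervals are Wilson intervals for shares and Newcombe intervals for differences, at 95%. No test was run, since the lists hold no replicate. On simulated data, counts and distances were recovered for 57 of 57 genes, 228 of 228 shared sites and 200 of 200 motifs. Alternatives covered the window, the overlap, the site lists and the gene sets. Tables were handled with pandas 2.3.3, sequences with pysam 0.24.0, intervals with SciPy 1.17.1 and NumPy 2.4.6 and figures with matplotlib 3.10.9, under Python 3.11.15. The values of some listed genes are not reported here.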

Additional observations from a re-analysis of the deposited data

How the results depend on the processing

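Of 57 alternative values, 42 stayed as reported: shares, densities and medians within the interval of the reported value, and differences with the same sign and with 0 still inside or still outside their interval. The alternatives for the difference between members and other circadian genes were chosen after seeing the data, apart from leaving the clock and Cyp genes out of the others. The share of members with a site changed most with the length of the window, while the median ZT0 distance and the shared sites left their interval only with the widest ZT0 sites. With an extension of 10 kb, 40.8% of members had a ZT0 site and 31.8% a ZT12 site, at 10.9 and 7.62 sites per Mb, and the differences from the other circadian genes became -2.41 points at ZT0 and 0.0269 points at ZT12. With 100 kb, 85.6% and 77.1% had a site. With 50 kb on each side of the start, 58.2% had a ZT12 site, and the difference at ZT0 rose to 8.47 points, with an interval above 0. With only the widest ZT0 sites, those of at least 275 bases and as many as at ZT12, 65.2% of members had a ZT0 site, the density was 9.40 per Mb, the median distance 38.9 kb and the shared sites 74.2%. With only sites that match the motif, the ZT12 difference was 7.32 points, with an interval from -0.122 to 14.3. The cause was not tested. No paired analysis was possible because replicates are not told apart in either list. Leaving out a replicate, a replicate block and a stricter peak threshold were not run, since the lists hold neither replicates nor scores. The unknown depth limits every share of sites listed at 1 time only.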

Other observations

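Between consecutive ZT0 sites, 27 of the 201 members stood in the same interval as another member, in 19 pairs. A start within a site was placed in the interval before the site, as for Mrpl34 in its pair with Abhd8. With any other circadian gene counted, 69 members shared their interval and 132 stood alone. Partners were counted once for each member, so a pair of members counts from both sides. Of the 109 partners, 38 peak at ZT18 (34.9%), a time that 16.3% of the table's genes have, the clock and Cyp genes included. Without the predicted Gm14 genes of chromosome 2, which are a cluster of 4 members, 26 of 93 partners did (28.0%). Between ZT12 sites, 42 of 138 partners peak at ZT18 (30.4%), and 30 of 122 without that cluster (24.6%). The same count between ZT0 sites gave 26.8% for genes with peak ZT0, which are 17.5% of the table, 34.0% for peak ZT6, which are 27.3%, and 50% for peak ZT12, which are 38.8%. Between ZT12 sites it gave 33.3%, 31.6% and 49.5%, the first of these above the members' share. Among the member pairs were Erp44 and Invs, with starts 0.202 kb apart, Ganab and 1810009A15Rik, 9.19 kb apart, Asl and Gusb, 22.1 kb apart, and the histone genes Hist1h1c and Hist1h4a, 22.4 kb apart. Kpnb1, which encodes the nuclear import receptor importin beta, and Gm11583 overlap. These intervals were counted after seeing the data and no test was made.

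The pair of sites on either side of a member bounded a median of 168 kb at ZT0 and 248 kb at ZT12, against 230 and 346 kb for the other circadian genes and 174 and 275 kb for the genes with peak ZT0. For 195 members both flanking ZT0 sites had a motif strand. Their motifs pointed towards each other, with the gene between them, for 42 members (21.5%, 16.3 to 27.8%), away from each other for 29.2% and the same way for 49.2%. The other circadian genes had 26.8%, 25.4% and 47.8%. At ZT12, the motifs flanking 23.0% of members pointed towards each other, against 25.5%.

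Among the members with no matched promoter entry were Asl, Celsr1, E130208F15Rik, Eef1g, Eid2b, Fgf1, Fmo1, Galm, Gm11583, Gm14327, Gm17431, Gm5537, Gm5844, Gm8355, Gm9806, Gm9817, Gramd3, Gsdma, Hapln4, Hfe2, Hsp90aa1, Hsp90ab1, Hspa8, Hyou1, Noa1, Pde9a, Pknox1, Ppp1r15b, Ppp1r3b, Pycrl, Rbm8a, Rrp12, Samd1, Shh, Slc17a9, Tmem66 and Tubg1.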
